A study of Mus musculus with 24 samples.

Results

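Livers of sham-operated control mice taken 28 d after surgery were compared with those taken 48 h after it. The comparison rests on 6 of the 24 arrays of the study, chosen by their titles alone: 3 arrays labelled control sham 28 d, from mice 12 weeks old, and 3 labelled control sham 48 h, from mice 8 weeks old. All were male mice on a C57BL/6 background homozygous for a floxed Jnk1 allele (JNK1f/f), with no Cre transgene named for them. In the sham operation the abdomen was opened and closed again at once, with the bile duct left untied. The other 18 arrays came from livers with a ligated bile duct, at 28 d or 48 h, of JNK1f/f control mice, of JNK1-/- mice and of JNK1Δhepa mice, in which the albumin promoter drives Cre and so removes Jnk1 in hepatocytes, with 3 arrays per group. As in the sham groups, the ligated mice were 12 weeks old at 28 d and 8 weeks old at 48 h. Time after surgery and age differ together, so an effect of the operation wearing off and an effect of growing older cannot be told apart.

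A laparotomy is itself an injury. Cytokines such as interleukin-6 and glucocorticoids released after it drive hepatocytes to make acute phase proteins, among them serum amyloid A, orosomucoid and lipocalin 2, and metallothioneins, small proteins that bind zinc and copper. Over the same weeks of life a male mouse passes into adulthood, when pulses of growth hormone, acting through the transcription factor STAT5, set much of the hepatocyte programme. Sham liver is the baseline against which ligation is read, and the comparison asks how far that baseline differs between the times.

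Each value is a log2 intensity of 1 gene on 1 array, and differences are given on the log2 scale as 28 d minus 48 h, so that 1 is a 2-fold change. Mapk8, the gene that encodes JNK1, was read first, since it checks the genotype on the label. It stood at 7.52, 7.52 and 7.54 on the arrays labelled sham 28 d, against 6.93, 6.67 and 6.86 on those labelled sham 48 h. The 9 control arrays not labelled sham 48 h, ligated ones included, lay between 7.37 and 7.67, and the arrays labelled sham 48 h were below all of them. JNK1Δhepa arrays ligated for 48 h lay at 6.76 to 6.81. Those ligated for 28 d read 7.67, 6.90 and 6.97 in replicates 1, 2 and 3. JNK1-/- arrays lay at 6.17 or lower. The difference in Mapk8 was 0.71 (SE 0.22, interval 0.25 to 1.16). By limma its unadjusted p was 0.00406, and its p adjusted over all genes was 0.344. That SE pools the spread of all 8 groups. The SD was 0.01 and 0.13 in sham liver at 28 d and 48 h. It was 0.46 in each JNK1-/- group and 0.43 in JNK1Δhepa liver ligated for 28 d. Mapk8 was called under 1 of 14 alternative settings (adjusted p from 0.0285 to 0.647). Mapk9, which encodes the homologue JNK2, stood at 8.96 to 9.12 at 28 d and 8.96 to 8.97 at 48 h. Whether the probes for Mapk8 fall inside the excised region is not stated by the labels.

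A second gene set replicates 2 and 3 of the same arrays apart. Nnt, a mitochondrial transhydrogenase that carries a deletion in some C57BL/6 substrains, stood at 9.84, 10.19 and 10.25 at 28 d, against 9.68, 8.81 and 8.94 on the arrays labelled sham 48 h. Replicates 2 and 3 labelled sham 48 h lay with the JNK1Δhepa arrays ligated for 48 h (8.84 to 9.05) and below all the other arrays, whereas replicate 1 lay within the range of the other controls, 9.45 to 10.25. The difference was 0.95 (SE 0.19, adjusted p = 0.0554 by limma). It came to 0.38 with the probe sets of Nnt averaged (adjusted p = 0.318), and Nnt was called under 4 of 14 alternative settings. Every sham difference below, and the interaction with ligation, rests on the arrays labelled sham 48 h, and the part played by their genotype or substrain in any result was not tested. Leaving out all 3 would leave no comparison.

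**Figure D1:**
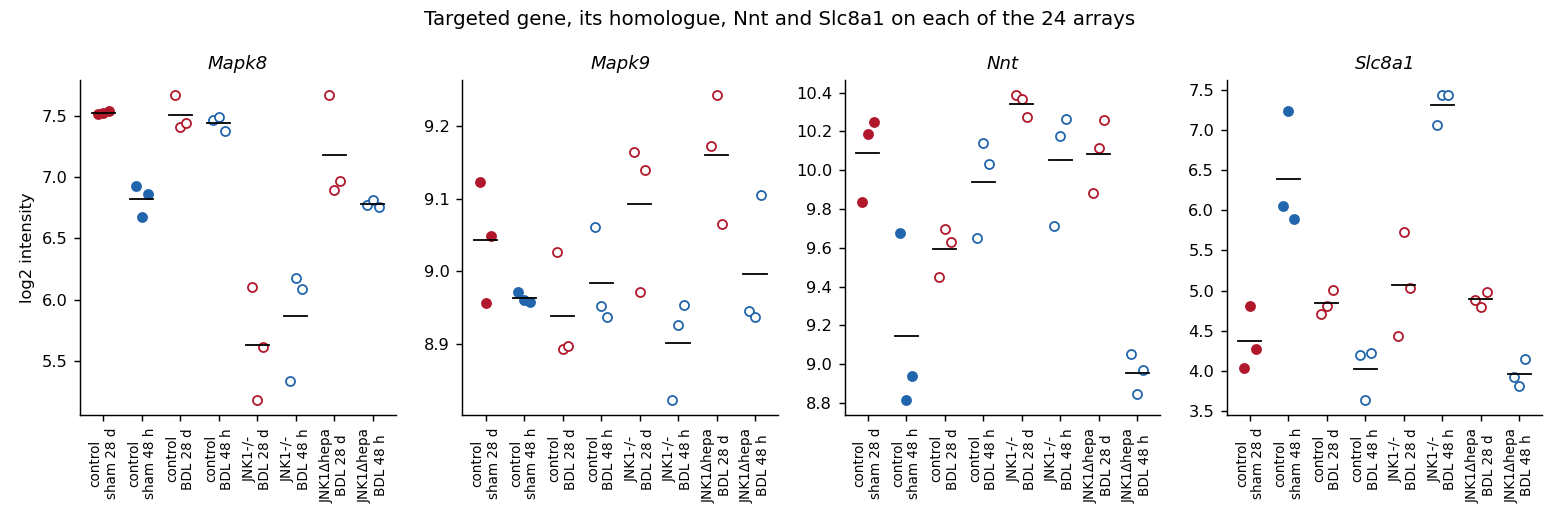
Log2 intensity of Mapk8, Mapk9, Nnt and Slc8a1 on each of the 24 arrays, by group on the horizontal axis (BDL, bile duct ligation). Points are arrays, bars are group means, filled points are sham arrays, red is 28 d and blue is 48 h. Mapk8 reads 7.52 to 7.54 on the sham 28 d arrays and 6.67 to 6.93 on those labelled sham 48 h, and Slc8a1 is high on the arrays labelled sham 48 h and in JNK1-/- liver ligated for 48 h.

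The 6 livers carried the markers of their tissue. Over 26 measured genes of hepatocyte secretion and metabolism, such as albumin and the apolipoproteins, the mean log2 intensity was 12.43 to 12.45 at 28 d and 12.38 to 12.41 at 48 h. The sham arrays correlated with each other at 0.9813 to 0.9932, and within-group spread was alike, with a median SD of 0.115 at 28 d and 0.116 at 48 h. The median SE of a difference was 0.129, and the median difference over all 18820 genes was -0.01. Replicates are known only by number, so p-values measure the spread between these arrays, and the spread was pooled over all 8 groups.

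In all, 25 genes differed between the times by limma (adjusted p under 0.05), 0.133% of those tested. Of these, 17 were higher at 28 d (0.0903%) and 8 lower (0.0425%), and 16 differed by at least 2-fold, against 78 of all genes (0.414%). The genes that rose include Cish, a feedback inhibitor of growth hormone signalling, and the transcription factors Onecut1, Foxq1, Hhex and Foxa1. Those that fell include both metallothioneins and lipocalin 2. The sham groups did not overlap for any of the 25, as was so for 18% of all genes, and 1427 genes (7.58%) had an unadjusted p under 0.05, 709 higher (3.77%) and 718 lower (3.82%). The calls leaned on single arrays. Without 1 array at a time the count was 14, 21 and 9 without 28 d replicates 1, 2 and 3, and 14, 8 and 4 without replicates 1, 2 and 3 of the arrays labelled sham 48 h. Cish, Hhex, Foxq1 and Slc8a1 were called without any of the 6.

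**Figure D2:**
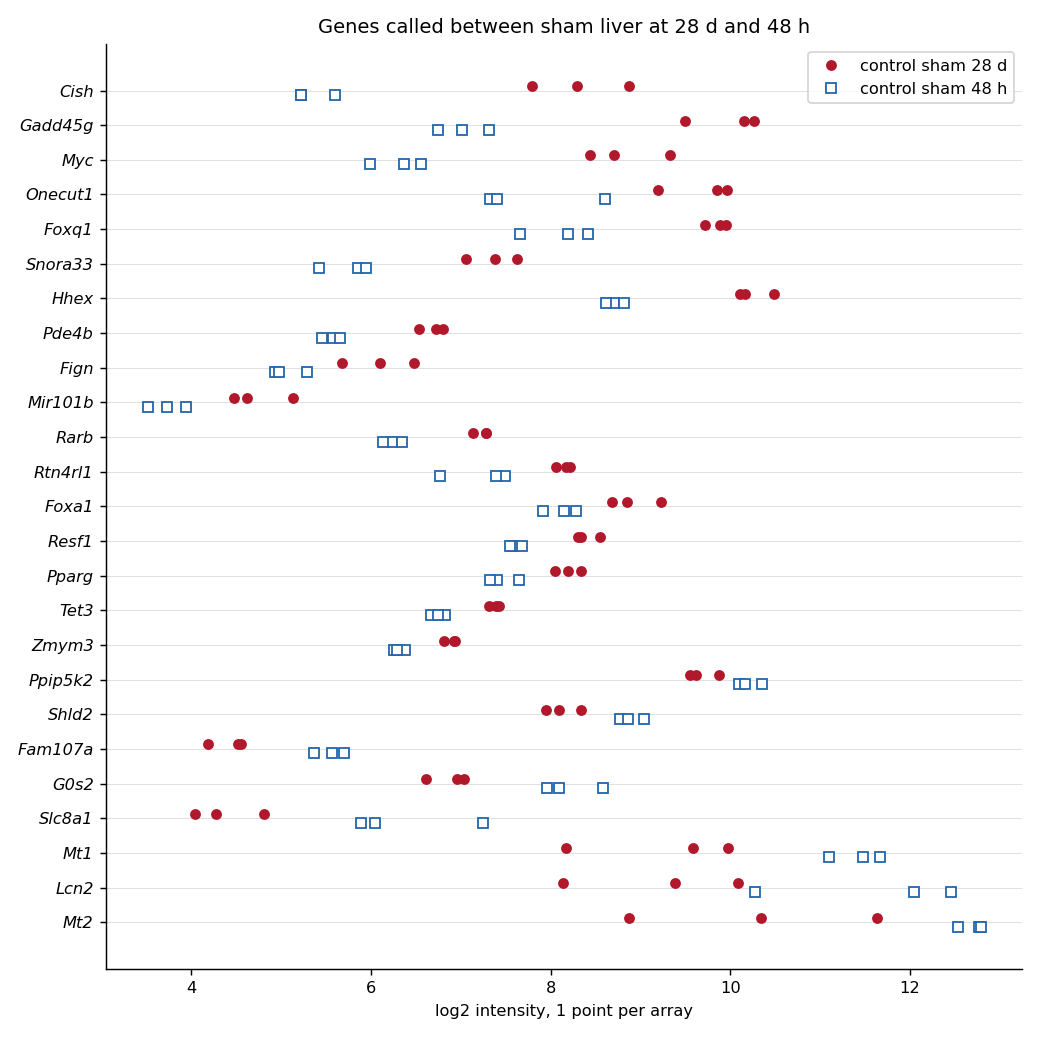
Log2 intensity of the 25 genes called, 1 point per array, with control sham 28 d as red circles and control sham 48 h as open blue squares. The groups do not overlap for any gene, and the differences run from 2.97 for Cish at the top to -2.42 for Mt2 at the bottom.

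Cish, a member of the SOCS family that STAT5 induces and that dampens cytokine receptors, rose most. It had log2 intensities of 7.79, 8.87 and 8.29 at 28 d, against 5.60, 5.22 and 5.22 at 48 h. All 3 values labelled sham 48 h lay below the other 21 arrays, and ligated livers covered 6.57 to 8.72. The difference was 2.97 (SE 0.26, adjusted p = 9.55e-06 by limma), or 7.83-fold. It lay between 2.69 and 3.23 across the 14 alternative settings tried, those that left out 1 array included. STAT5 binds the palindrome TTCNNNGAA, where N is any base, and the RefSeq promoter of Cish is shown because it holds that motif in duplicate (250 bases before to 50 after the transcript start, build GRCm38.p6, motif in capitals).
Cish, chr9:107296409-107296708, plus strand: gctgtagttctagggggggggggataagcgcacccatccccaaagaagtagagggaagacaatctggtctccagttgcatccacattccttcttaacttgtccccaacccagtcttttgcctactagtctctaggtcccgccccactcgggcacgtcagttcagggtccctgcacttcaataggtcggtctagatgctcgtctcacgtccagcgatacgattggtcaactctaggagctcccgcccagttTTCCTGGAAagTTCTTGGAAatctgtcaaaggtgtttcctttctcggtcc
The motifs begin 1 and 12 bases into the transcript as annotated, and they do not overlap. Of 32851 mouse promoter windows of this length, 8.3% hold at least 1 TTCNNNGAA and 0.457% at least 2. The sequence is a description of the window and says nothing of binding in these livers.

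In the list of growth hormone and IGF genes Cish was the 1 member called of 17 measured, where 0.133% of all genes were called. The list's median difference was 0.16 beside -0.01 over all genes. Without overlap 5 members were higher and 0 lower (8.92% and 9.04% of all genes). Igf1, the growth factor that growth hormone induces in liver, stood at 11.69 to 11.83 at 28 d and 11.54 to 11.67 at 48 h, a difference of 0.16 (95% interval -0.02 to 0.35). Socs2, another STAT5 target, overlapped between the groups, at 0.42 (-0.51 to 1.36). Ghr, the growth hormone receptor, and Stat5a differed by 0.17 and -0.24, neither past the threshold. By limma none of 19 male-biased genes and none of 14 female-biased genes was called, with medians of 0.06 and 0.14. At an unadjusted p under 0.05 were 2 and 1 of them, where 7.58% of all genes were. With the 6 sham arrays alone 1 male-biased gene was called lower. Without overlap 6 male-biased genes were higher and 2 lower, and 3 female-biased genes were higher and 0 lower (8.92% and 9.04% of all genes). The female-biased gene Abcd2 differed by 0.79 without overlap (0.22 to 1.35, adjusted p = 0.424 by limma). Bcl6, a repressor that is higher in male liver, stood at 8.12 to 8.57 at 28 d and 9.21 to 9.41 at 48 h (-1.01, SE 0.35, adjusted p = 0.433). Serpina4-ps1, a male-specific pseudogene transcript, stood at 11.13 to 11.48 and 9.75 to 10.71 (1.22, SE 0.47, adjusted p = 0.503). The major urinary protein gene Mup20 differed by 0.10, with an interval of -0.98 to 1.17.

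Among regulators of stress and growth, Gadd45g and Myc rose next. Gadd45g, which binds kinases upstream of p38 and JNK, had 10.26, 10.16 and 9.50 at 28 d, against 7.01, 6.75 and 7.32 at 48 h. Its difference was 2.95 (SE 0.58, adjusted p = 0.0463), and the call was lost without any 1 of the 6 arrays (adjusted p up to 0.243). Myc, a transcription factor of cell growth, had 9.33, 8.43 and 8.71 at 28 d, against 6.56, 6.37 and 5.99 at 48 h. Its difference was 2.52 (SE 0.37, adjusted p = 0.00727), and it was lost only without replicate 3 labelled sham 48 h (adjusted p = 0.0908). All 3 arrays labelled sham 48 h were below the other 21 for Myc, with ligated livers at 7.35 to 10.20. Of 25 immediate early and AP-1 genes these were the 2 called, where 0.133% of all genes were, and the list's median was -0.03. At an unadjusted p under 0.05 by limma 4 were higher and 3 lower (3.77% and 3.82% of all genes). Without overlap 6 were higher and 3 lower (8.92% and 9.04% of all genes). Egr1, an early growth response factor, stood at 6.50 to 7.63 at 28 d and 8.58 to 8.72 at 48 h (-1.56, SE 0.36, adjusted p = 0.111). Jun, the substrate of JNK1, stood at 7.91 to 9.35 and 7.52 to 7.90 (1.08, SE 0.28, adjusted p = 0.205). Fos differed by -0.07, with an interval of -0.92 to 0.78.

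Several transcription factors rose, and they were grouped here after their values were seen. Hhex, a homeobox factor needed for the liver bud, had 10.16, 10.11 and 10.49 at 28 d, against 8.70, 8.82 and 8.61 at 48 h. Every 28 d value was above the other 21 arrays and every value labelled sham 48 h below them, which no other called gene showed. The difference was 1.54 (SE 0.15, adjusted p = 3.52e-05), and it lay between 1.43 and 1.61 across the 14 alternative settings. Foxq1, a forkhead factor, had 9.72, 9.95 and 9.89 at 28 d, against 8.20, 7.66 and 8.42 at 48 h (1.76, SE 0.23, adjusted p = 0.00188). Its 28 d values lay above all 21 other arrays, of which the highest read 8.67. A dimmer Foxq1 probe set gave 1.17.

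Onecut1, also called HNF6 and active in hepatocytes and bile duct cells, had 9.20, 9.97 and 9.85 at 28 d, against 8.61, 7.32 and 7.40 at 48 h. Replicate 1 labelled sham 48 h stood well above the other two. The difference was 1.89 (SE 0.37, adjusted p = 0.0481), and the call was lost without any 1 array other than that replicate (adjusted p up to 0.297). Foxa1, a factor that opens chromatin at liver genes, had 8.68, 9.23 and 8.85 at 28 d, against 8.28, 8.15 and 7.92 at 48 h (0.80, SE 0.15, adjusted p = 0.0340). Its call was lost without any 1 array other than 28 d replicate 1 (adjusted p up to 0.231). Its paralogue Foxa2 stood at 7.49 to 7.98 and 7.07 to 7.42 (0.58, SE 0.13, adjusted p = 0.111). Cebpa, also on the hepatocyte list, differed by 0.45 without overlap (0.17 to 0.72, adjusted p = 0.318 by limma). Hnf4a, the nuclear receptor at the centre of hepatocyte identity, differed by -0.18 (-0.39 to 0.03). None of the 26 hepatocyte genes was called by limma (1 was without 28 d replicate 1). At an unadjusted p under 0.05 were 2, Foxa2 and Cebpa, where 7.58% of all genes were. Without overlap 7 were higher and 1 lower (8.92% and 9.04% of all genes). The list's median was 0.02, with albumin (Alb) at 0.04 (-0.09 to 0.17). Foxa1 overlaps Ttc6, which differed by 0.53 without being called (adjusted p = 0.436).

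Smaller rises were called in the nuclear receptors Rarb and Pparg and in 3 further genes. Rarb, a retinoic acid receptor that retinoic acid itself induces, had 7.28, 7.29 and 7.14 at 28 d, against 6.24, 6.34 and 6.13 at 48 h (0.996, SE 0.18, adjusted p = 0.0340). Pparg, the master regulator of fat cells that hepatocytes express at a low level, had 8.34, 8.19 and 8.05 at 28 d, against 7.65, 7.41 and 7.33 at 48 h (0.73, SE 0.13, adjusted p = 0.0284). On both genes the arrays labelled sham 48 h lay below all 21 others. Resf1, which silences retroelements, differed by 0.79 (SE 0.15, adjusted p = 0.0340). Tet3, which oxidises methylated cytosine, differed by 0.63 (SE 0.12) and Zmym3, a zinc finger protein, by 0.58 (SE 0.11), both with adjusted p = 0.0463. The second probe set of Tet3 differed by 0.30, and with both averaged the difference was 0.47 (adjusted p = 0.0884). Tet3 and Zmym3 fall outside the naming rule and were added after their values were seen. The calls of Rarb, Resf1, Tet3 and Zmym3 were lost without any 1 of the 6 arrays (adjusted p up to 0.187, 0.230, 0.230 and 0.240), and that of Pparg without any other than replicate 1 labelled sham 48 h (up to 0.187). Of the fat cell markers, Adipoq and Fabp4 differed by 0.17 and -0.00, and Cidea by 0.38 without overlap (adjusted p = 0.552 by limma). The 10 measured markers, Pparg itself among them, had a mean of 4.88 to 4.99 at 28 d and 4.86 to 4.90 at 48 h. Of these 10, 5 were above 0 and 5 below. At an unadjusted p under 0.05 by limma 2 were higher, Pparg and Cidea, and 0 lower (3.77% and 3.82% of all genes).

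The remaining genes that rose were 3 coding genes and 2 small RNAs. Pde4b, a phosphodiesterase that degrades cyclic AMP, had 6.80, 6.73 and 6.53 at 28 d, against 5.58, 5.65 and 5.45 at 48 h (1.12, SE 0.22, adjusted p = 0.0469). Fign, a protein that severs microtubules, differed by 1.02 (SE 0.19, adjusted p = 0.0449), and Rtn4rl1, a homologue of the Nogo receptor, by 0.93 (SE 0.17, adjusted p = 0.0334). Pde4b was lost without any 1 array (adjusted p up to 0.243), Fign without any other than 28 d replicate 2 (up to 0.250) and Rtn4rl1 without any other than replicate 2 labelled sham 48 h (up to 0.156).

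Snora33, a small nucleolar RNA that guides pseudouridine formation in ribosomal RNA, had 7.38, 7.06 and 7.62 at 28 d, against 5.86, 5.94 and 5.42 at 48 h (1.61, SE 0.24, adjusted p = 0.00727). Its host gene Rps12 differed by 0.23 (SE 0.09, adjusted p = 0.509), and the Snora33 call was lost without 28 d replicate 3 or without replicate 3 labelled sham 48 h (adjusted p up to 0.0917). Mir101b, a microRNA gene within Rcl1, had 4.47, 5.13 and 4.62 at 28 d, against 3.52, 3.94 and 3.73 at 48 h (1.01, SE 0.16, adjusted p = 0.0116). Every 28 d value was above the other 21 arrays, yet the gene was dim, with a mean of 3.51 over all arrays, below the 25th percentile of all genes (3.89). Rcl1 differed by 0.10 (adjusted p = 0.976). The call was lost without 28 d replicate 2 and without replicate 1 or 3 labelled sham 48 h (adjusted p up to 0.0917). The labels do not say whether the probes read the precursor or a mature arm, whose RefSeq sequences (build GRCm38.p6, seed bases 2 to 8 in capitals) are given to identify them.
miR-101b-5p, chr19:29135302-29135324, plus strand: uCGGUUAUcaugguaccgaugcu
miR-101b-3p, chr19:29135338-29135356, plus strand: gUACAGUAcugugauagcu
The seeds of the 2 arms differ.

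Among the genes called lower, Mt2, Lcn2 and Mt1 fell most. Mt2 had log2 intensities of 10.35, 11.63 and 8.87 at 28 d, against 12.54, 12.77 and 12.79 at 48 h (-2.42, SE 0.39, adjusted p = 0.0116). Mt1 had 9.59, 9.97 and 8.17 at 28 d, against 11.10, 11.67 and 11.48 at 48 h (-2.17, SE 0.38, adjusted p = 0.0258). Lcn2, an iron-siderophore binding protein of the acute phase, had 9.39, 10.09 and 8.13 at 28 d, against 10.27, 12.05 and 12.46 at 48 h (-2.39, SE 0.42, adjusted p = 0.0259). The 28 d livers differed widely among themselves, replicate 3 being lowest and replicate 2 highest for all 3 genes. They lay below every other array for each gene, and ligated livers read 12.39 to 13.18 for Mt2, 11.33 to 12.81 for Mt1 and 12.52 to 13.30 for Lcn2. Mt2 was lost without replicate 2 or 3 labelled sham 48 h (adjusted p up to 0.0974). Mt1 was lost without those or without 28 d replicate 3 (up to 0.136), and Lcn2 without those or without 28 d replicates 1 or 3 (up to 0.187). The SEs pool the spread of all 8 groups. For Lcn2 the SD was 0.99 and 1.16 in sham liver at 28 d and 48 h, against 0.01 to 0.28 in the ligated groups. For Mt2 and Mt1 it was 1.38 and 0.95 in sham liver at 28 d. The pooled spread is narrower than these. In a fit of the 6 sham arrays alone none of the 3 genes was called (adjusted p 0.116 for Mt2, 0.0711 for Mt1 and 0.159 for Lcn2).

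The metallothionein promoters are shown because both genes fell and both hold several copies of the metal response element core, TGCACNC or TGCGCNC, read on both strands (RefSeq, build GRCm38.p6, motif in capitals).
Mt2, chr8:94172368-94172667, plus strand: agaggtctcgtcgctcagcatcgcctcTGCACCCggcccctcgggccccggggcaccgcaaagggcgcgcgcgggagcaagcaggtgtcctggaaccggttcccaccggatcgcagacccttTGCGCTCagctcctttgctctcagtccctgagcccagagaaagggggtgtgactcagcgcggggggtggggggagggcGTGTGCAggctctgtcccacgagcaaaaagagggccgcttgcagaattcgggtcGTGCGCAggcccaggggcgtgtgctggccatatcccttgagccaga
Mt1, chr8:94178839-94179138, plus strand: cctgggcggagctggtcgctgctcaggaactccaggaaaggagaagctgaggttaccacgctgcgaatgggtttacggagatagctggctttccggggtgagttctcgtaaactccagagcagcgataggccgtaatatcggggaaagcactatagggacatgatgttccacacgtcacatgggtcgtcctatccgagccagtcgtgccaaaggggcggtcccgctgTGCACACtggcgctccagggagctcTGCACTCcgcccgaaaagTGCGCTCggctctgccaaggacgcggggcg
Mt2 holds 4 copies and Mt1 holds 3 in these windows. At least 1 copy occurs in 25.7% of the 32851 promoter windows, at least 3 in 1.97% and at least 4 in 0.517%. The copies do not overlap, and the match describes the letters alone.

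Across the acute phase list of 25 measured genes, 3 were called, all lower, and none higher (0.133% of all genes were called). The median was -0.31 beside -0.01 over all genes, 22 members were below 0, and 13 had groups that did not overlap, all lower at 28 d, where 9.04% of all genes did. Orm2, an orosomucoid, stood at 9.04, 10.73 and 9.20 at 28 d, against 10.54, 11.28 and 11.93 at 48 h (-1.59, SE 0.34, adjusted p = 0.0815). Saa2, a serum amyloid A, differed by -2.35 with an interval of -4.24 to -0.45, and its groups overlapped because 28 d replicate 2 read 11.57. Of other abundant members, fibrinogen beta (Fgb) differed by -0.06 (-0.22 to 0.11), haptoglobin (Hp) by -0.18 (-0.39 to 0.03) and hepcidin (Hamp) by 0.08 (-0.38 to 0.54).

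The list of glucocorticoid and stress hormone targets shares Mt1, Mt2 and Lcn2 with the one above. Of its 18 genes these 3 were called lower and Gadd45g higher, where 0.133% of all genes were called. The median was -0.47 beside -0.01 over all genes, and 8 did not overlap on the lower side, where 9.04% of all genes did. Without replicate 2 or 3 labelled sham 48 h no member of either list was called. Cdkn1a, the cell cycle inhibitor p21, had 7.57, 9.16 and 8.48 at 28 d, against 10.69, 10.72 and 10.06 at 48 h (-2.09, SE 0.43, adjusted p = 0.0606). Fkbp5, a chaperone of the glucocorticoid receptor that the receptor induces, had 7.03, 8.31 and 7.16 at 28 d, against 8.66, 8.83 and 8.92 at 48 h (-1.30, SE 0.33, adjusted p = 0.173). Zbtb16 differed by -0.85 (adjusted p = 0.478). Tat, a tyrosine aminotransferase, differed by -0.14 (-0.37 to 0.08) and Sgk1, a kinase, by 0.03 (-0.62 to 0.67). As for Mt2, the 28 d replicate 2 was the highest of its group for Cdkn1a, Fkbp5 and Orm2.

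**Figure D3:**
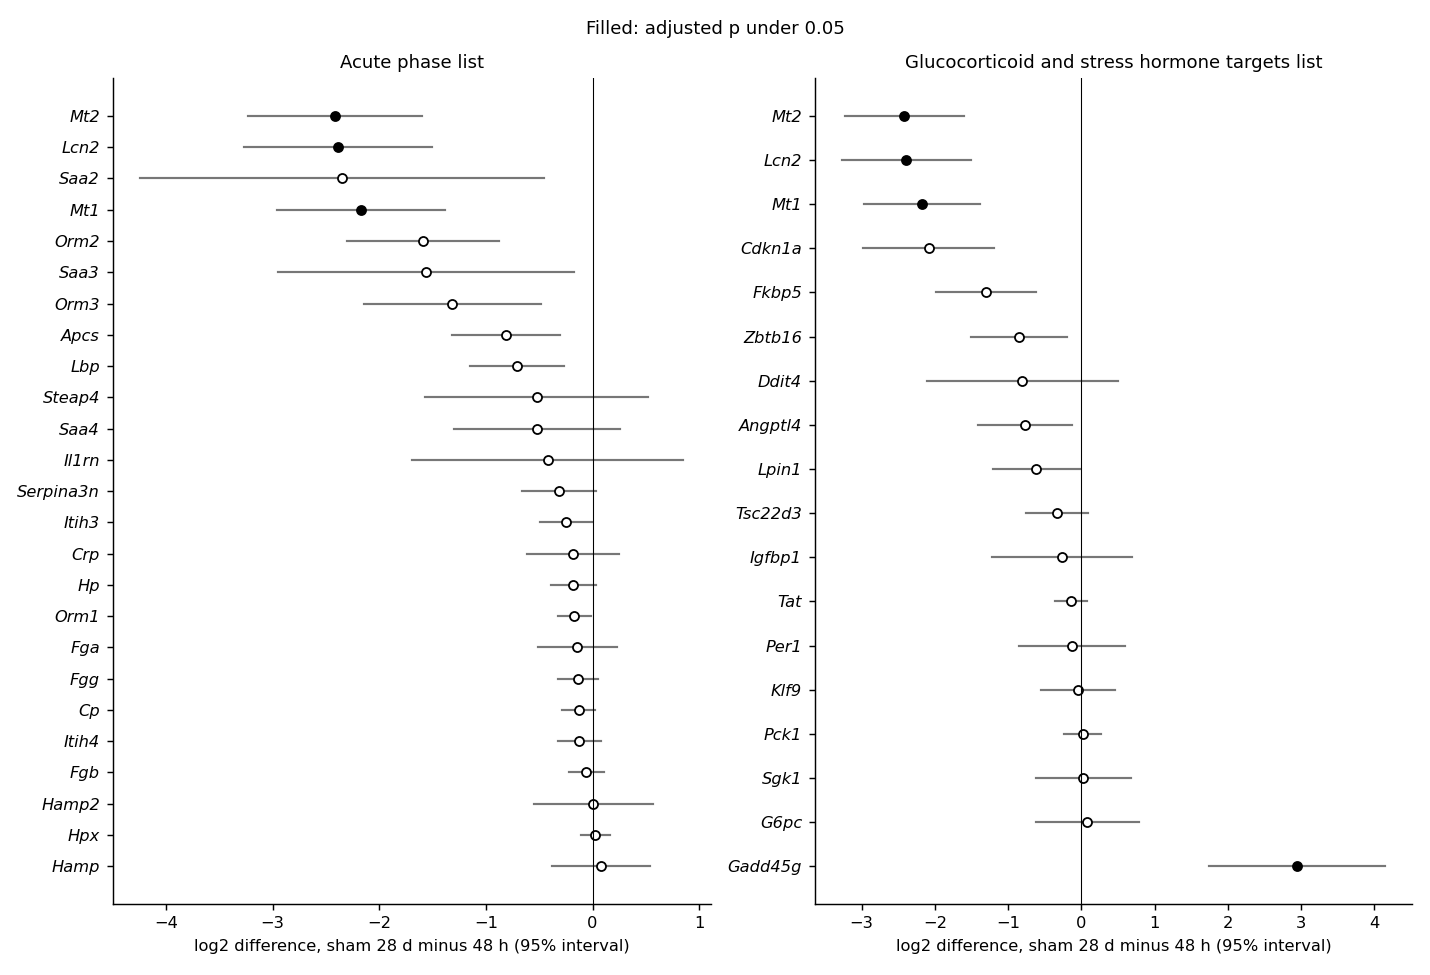
Difference between sham liver at 28 d and 48 h (log2, horizontal axis) with 95% interval for each measured gene of the acute phase list, left, and of the glucocorticoid and stress hormone list, right. Filled points have an adjusted p under 0.05. In the acute phase list 22 of 25 points lie below 0, with Mt2, Lcn2 and Mt1 called.

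The other 5 genes that fell are described singly, and whether they share a pathway was not tested. Slc8a1, a sodium-calcium exchanger, had 4.03, 4.81 and 4.28 at 28 d, against 6.05, 7.24 and 5.89 at 48 h (-2.02, SE 0.31, adjusted p = 0.00727). Outside the arrays labelled sham 48 h it was as high only in JNK1-/- liver ligated for 48 h (7.07 to 7.44), and the other 18 arrays covered 3.63 to 5.73. Its second probe set differed by -0.24, so the value rests on 1 of 2 probe sets and came to -1.13 when they were averaged, still called. With the 6 sham arrays alone the adjusted p was 0.0525. G0s2, an inhibitor of the lipase that breaks down stored fat, had 6.61, 7.04 and 6.96 at 28 d, against 8.58, 7.96 and 8.09 at 48 h (-1.34, SE 0.24, adjusted p = 0.0259). Fam107a, an actin-binding protein of the stress response, had 4.19, 4.52 and 4.55 at 28 d, against 5.36, 5.56 and 5.70 at 48 h (-1.12, SE 0.18, adjusted p = 0.0114). Shld2, a subunit of the shieldin complex of DNA repair, differed by -0.76 (SE 0.15) and Ppip5k2, which makes inositol pyrophosphates, by -0.52 (SE 0.10), both with adjusted p = 0.0463.

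Single arrays decided the calls of the other 4 genes. Without 28 d replicate 1 or without replicates 2 or 3 labelled sham 48 h, Fam107a was lost (adjusted p up to 0.0974). G0s2, Shld2 and Ppip5k2 were lost without any 1 array other than 28 d replicate 2 (up to 0.169, 0.261 and 0.261). Ppip5k2 overlaps Gin1, which differed by -0.67 (SE 0.21, adjusted p = 0.339). Just outside the threshold on the lower side lay Cyp21a1, a steroid hydroxylase of the adrenal cortex, at 6.51, 6.04 and 6.87 at 28 d, against 7.39, 7.20 and 7.30 at 48 h (-0.83, SE 0.17, adjusted p = 0.0597).

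Markers of macrophages and neutrophils had no member called by limma, while 8 of 25 and 3 of 13 were lower at an unadjusted p under 0.05 (3.82% of all genes). Of the 25 macrophage and Kupffer cell markers 22 were below 0 and 11 did not overlap on the lower side (9.04% of all genes), with a median of -0.32. With the 6 sham arrays alone 1 of them was called lower. Their mean level was 7.33 to 7.64 at 28 d and 7.73 to 7.83 at 48 h. Ctss, a lysosomal protease, stood at 7.49 to 7.73 and 7.99 to 8.25 (-0.47, SE 0.10, adjusted p = 0.0978). Lgals3, C1qc and Cd68 differed by -0.51, -0.47 and -0.55 without overlap (adjusted p = 0.261, 0.339 and 0.379 by limma). The Kupffer cell receptor Clec4f differed by -0.24 (-1.25 to 0.76). Of 13 neutrophil markers 11 were below 0 and 7 did not overlap on the lower side (9.04% of all genes), with mean levels of 4.11 to 4.22 and 4.50 to 4.63. S100a8 and S100a9, their most abundant cytosolic proteins, differed by -0.71 (-1.66 to 0.24) and -0.65 (-1.49 to 0.20). Retnlg, Cxcr2 and Csf3r, the 3 at an unadjusted p under 0.05, differed by -1.07, -0.78 and -0.60 (adjusted p = 0.505, 0.627 and 0.659 by limma). The part of these cells in the fall of Lcn2 and the metallothioneins was not tested, and in bulk liver fewer cells of a type and less RNA per cell cannot be told apart.

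Markers of the mesothelium, the sheet of cells that covers the liver, had differences above 0 in all 10 members measured, with a median of 0.66, and 7 did not overlap, where 8.92% of all genes were higher without overlap. None was called. Their mean level was 5.14 to 5.33 at 28 d and 4.51 to 4.73 at 48 h. Msln, or mesothelin, stood at 5.45 to 6.06 and 4.83 to 5.22 (0.68, interval -0.29 to 1.65, adjusted p = 0.830), and Upk3b at 6.28 to 6.68 and 5.39 to 5.96 (0.73, -0.17 to 1.63). None of the 10 had an unadjusted p under 0.05. Krt19, a keratin of mesothelium and bile duct cells, stood at 5.16 and 6.64 in 28 d replicates 1 and 3 and lower in replicate 2, against 4.67, 4.49 and 4.34 at 48 h (1.10, SE 0.59), with replicate 3 far above the other 28 d livers. Among 16 cholangiocyte genes, the median was 0.27 and 14 were above 0. On the higher side 4 did not overlap and on the lower side 1 (8.92% and 9.04% of all genes). Onecut1 was the 1 called, where 0.133% of all genes were. Sox9, 1 of the 2 members below 0, stood at 6.86 to 7.53 and 7.74 to 8.28 (-0.79, SE 0.36, adjusted p = 0.633). Markers of adjoining pancreas, muscle and gut had no member called by limma, with 0, 0 and 2 at an unadjusted p under 0.05 (7.58% of all genes). Their mean levels at 28 d were 4.11 to 4.31, 3.99 to 4.13 and 5.10 to 5.47, against 4.11 to 4.204, 4.04 to 4.19 and 5.09 to 5.22 at 48 h.

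**Figure D4:**
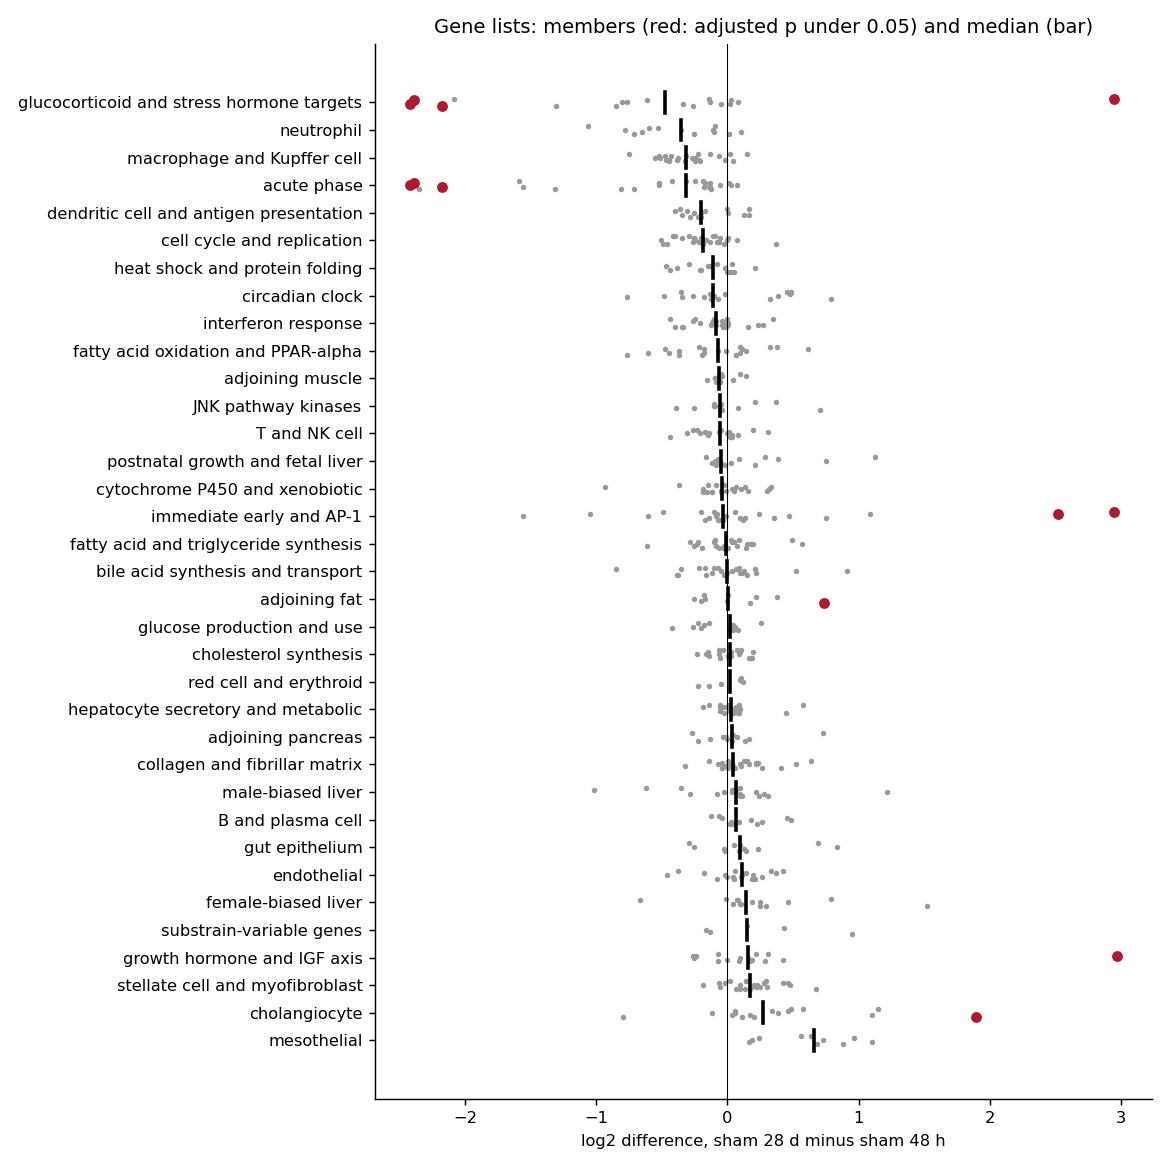
Difference between sham liver at 28 d and 48 h (log2, horizontal axis) for every measured member of 35 gene lists, ordered by median from the lowest at the top. Points are genes, larger red points have an adjusted p under 0.05 and black bars are list medians. The medians run from -0.47 for stress hormone targets to 0.66 for mesothelial markers.

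Several programmes had no member called by limma. This held for 29 collagen and matrix genes (median 0.04), with Col1a1 at 5.82 to 6.29 and 6.10 to 6.20 (-0.04, -0.87 to 0.78) and Col3a1 at 0.10 (-0.71 to 0.91). It also held for 29 cell cycle genes (median -0.19, 26 below 0), with the proliferation antigen Mki67 at -0.19 (-1.10 to 0.72). The same count of 0 held for 18 clock genes (median -0.11), 27 interferon genes (-0.08), 20 genes of cholesterol synthesis (0.02) and 21 of fatty acid oxidation (-0.07). At an unadjusted p under 0.05 the count was 1, 0, 0, 0, 0 and 4 in the order given, where 7.58% of all genes had one. With the 6 sham arrays alone 1 gene of fatty acid oxidation was called lower. Ppara, the receptor that drives fatty acid oxidation, stood at 10.08 to 10.30 and 10.53 to 10.61 (-0.37, SE 0.12, adjusted p = 0.354). Afp and Igf2, fetal genes that are shut off after birth, differed by -0.08 (-0.48 to 0.33) and -0.02 (-0.42 to 0.38). The intervals quoted leave room for changes of up to about 1 on the log2 scale for several genes. Other members of these lists had wider ones, such as -2.34 to 1.46 for Cyp4a14 and -0.37 to 1.95 for Per3.

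Of 25 measured genes of bile acid synthesis and transport none was called by limma, and 3 had an unadjusted p under 0.05, all higher (3.77% of all genes). After quantile normalization, and with the 6 sham arrays alone, 1 of the 25 was called higher. Abcc3, an exporter of conjugated bile acids on the blood side, stood at 11.15, 10.85 and 10.99 at 28 d, against 10.51, 10.49 and 10.42 at 48 h (0.52, SE 0.11, adjusted p = 0.0597). Slco1a4, an uptake carrier for organic anions, stood at 9.56, 9.25 and 9.45 at 28 d, against 8.49, 8.65 and 8.37 at 48 h (0.91, SE 0.20, adjusted p = 0.0876). Cyp7a1, the rate-limiting enzyme of bile acid synthesis, was uneven at 28 d, with 10.72, 7.89 and 10.70, against 10.27, 9.90 and 10.28 at 48 h. Its difference had an interval of -2.78 to 2.03, with an error pooled over all 8 groups. The low 28 d value was that of replicate 2, also the highest 28 d liver for Mt2, Lcn2 and Saa2.

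Set among the 24 arrays, the called genes divide by which sham group stands apart. For 11 of the 25, only the arrays labelled sham 48 h lay beyond all 21 others, as in Cish, Myc, Rarb and Pparg. For 6 only the 28 d arrays did, namely Foxq1, Mir101b, Foxa1, Mt1, Lcn2 and Mt2. Hhex showed both and the other 7 neither. Over all genes the arrays labelled sham 48 h lay beyond the rest for 1.68% and the sham 28 d arrays for 2%, and since the genes were chosen for a difference between these arrays the counts are a description. Mt2 on the arrays labelled sham 48 h lay within the range of the ligated livers, 2 of the 3 Mt1 values did, and all 3 Lcn2 values were below it.

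**Figure D5:**
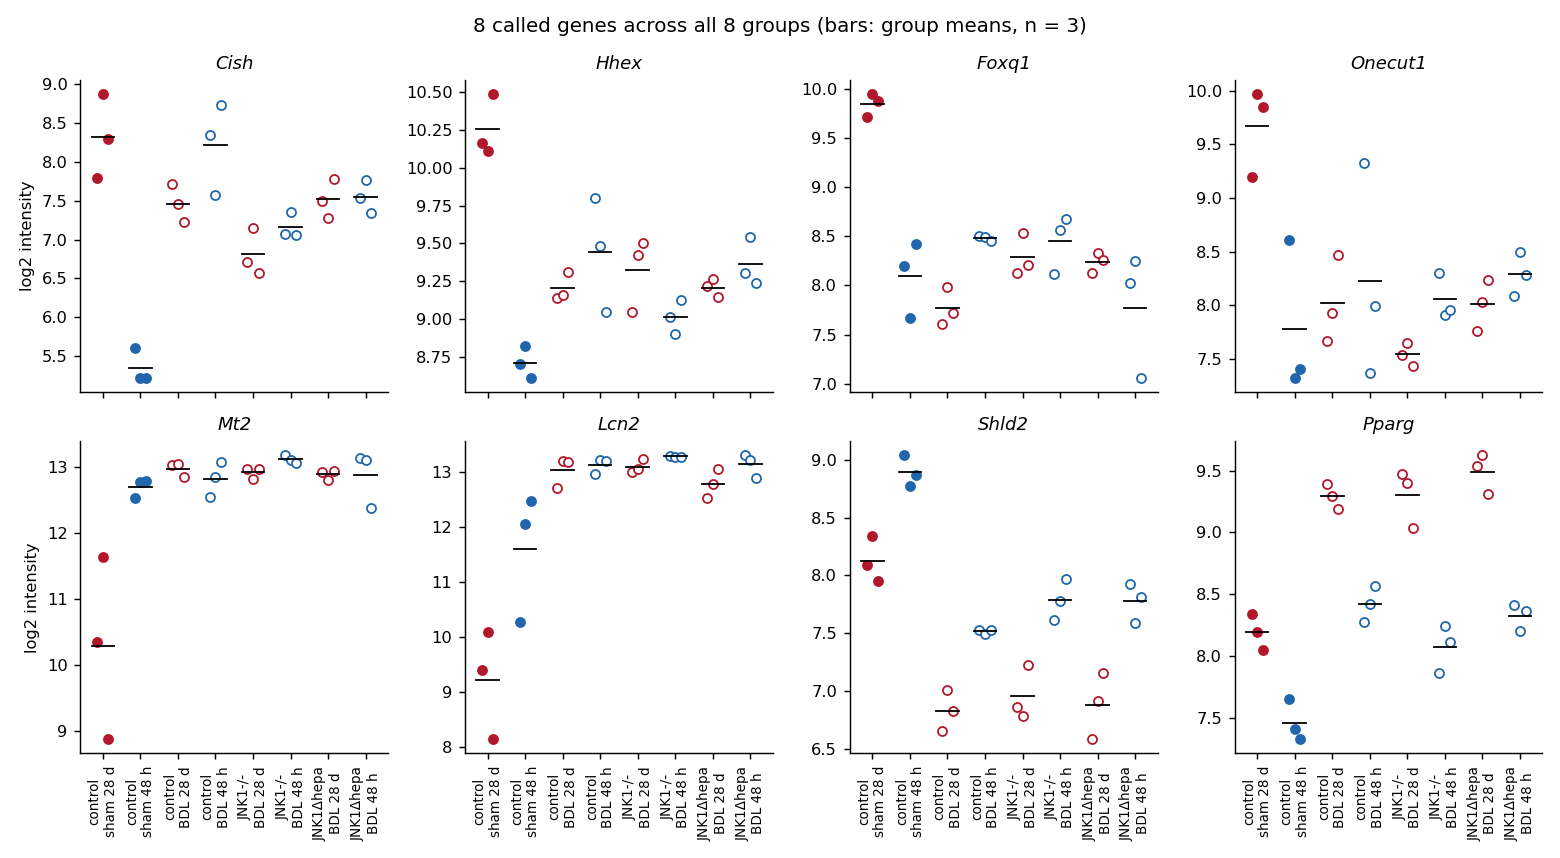
Log2 intensity of 8 of the called genes on each of the 24 arrays, by group on the horizontal axis (BDL, bile duct ligation). Points are arrays, bars are group means (n = 3), filled points are sham arrays, red is 28 d and blue is 48 h. Mt2 and Lcn2 are low on the sham 28 d arrays, Cish on those labelled sham 48 h, and Pparg and Shld2 differ between 28 d and 48 h under ligation too.

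The difference between 28 d and 48 h was also measured in ligated mutant livers, on arrays that the sham comparison does not share. In ligated JNK1-/- liver 534 genes (2.84%) were called between 28 d and 48 h, 365 higher (1.94%) and 169 lower (0.898%), or 190 and 476 with each array centred on its median. The count was 227 to 659 without 1 array. Of the 25 sham genes 5 were called there, all in the same direction, and 20 were not. They were Snora33 (1.53, SE 0.24, adjusted p = 0.00171), Rarb (0.92, SE 0.18), Pparg (1.23, SE 0.13, adjusted p = 2.48e-05), Slc8a1 (-2.25, SE 0.31) and Shld2 (-0.83, SE 0.15). In ligated JNK1Δhepa liver, where 3382 genes (18%) were called and 1919 to 2760 without 1 array, 6 of the 25 were called in the sham direction, 2 in the opposite one and 17 not at all. Those in the sham direction were Myc (1.92, SE 0.37, adjusted p = 0.00165), Pde4b (1.19, SE 0.22), Resf1 (0.88, SE 0.15), Pparg (1.16, SE 0.13), Shld2 (-0.89, SE 0.15) and G0s2 (-1.11, SE 0.24). Slc8a1 and Fam107a were opposite, at 0.93 (SE 0.31, adjusted p = 0.0411) and 0.82 (SE 0.18, adjusted p = 0.00354). One array of that group, labelled JNK1Δhepa 28 d replicate 1, read 7.67 for Mapk8, at the control level.

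Pparg and Shld2 were the 2 genes called in both mutants in the sham direction. Pparg averaged 9.30 ± 0.23 in JNK1-/- liver ligated for 28 d and 8.07 ± 0.20 in that ligated for 48 h (SD, n = 3 each). In JNK1Δhepa liver it averaged 9.49 ± 0.16 at 28 d and 8.33 ± 0.11 at 48 h, against 8.19 ± 0.14 and 7.46 ± 0.17 in sham liver. The later time was higher in each pair, and the sham livers lay lower than the ligated ones at the same time. Shld2 averaged 6.96 ± 0.24 at 28 d and 7.78 ± 0.18 at 48 h in ligated JNK1-/- liver. In sham liver it averaged 8.13 ± 0.20 at 28 d and 8.89 ± 0.14 at 48 h. Cish was not called in either mutant, at -0.35 (SE 0.26, adjusted p = 0.536) in JNK1-/- and -0.03 (SE 0.26, adjusted p = 0.965) in JNK1Δhepa. Mt2 was not called in either, at -0.20 (SE 0.39) and 0.02 (SE 0.39).

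Whether the sham step differs from the step under ligation was tested in control liver as an interaction, the sham difference minus the ligated difference. It was called for 244 genes (1.3%), 111 higher and 133 lower, or 208 and 100 with each array centred on its median, and 112 to 612 without 1 array. Of the 25 sham genes 12 were called in it, 7 higher and 5 lower, but the sham difference is part of both contrasts, so nothing is read from that count. Cish differed by 3.72 between the steps (SE 0.37, adjusted p = 3.63e-05), with 2.97 in sham liver and -0.75 in ligated control liver. Hhex differed by 1.78 (SE 0.22, adjusted p = 0.000295) and Fam107a by -2.04 (SE 0.25, adjusted p = 0.000325). For Pparg and Shld2 the steps in sham and ligated control liver were 0.73 and 0.87 for Pparg and -0.76 and -0.69 for Shld2, and the interaction was -0.14 (SE 0.19) and -0.08 (SE 0.21). Among the genes with the largest interactions, Serpina4-ps1 (5.94) differed by 1.22 in sham liver and by -4.72 in ligated control liver. Sult1e1, an estrogen sulfotransferase (-5.05), differed by 0.25 in sham liver and by 5.29 in ligated control liver. Next came the sulfotransferase Sult2a8 (5.08), the major urinary protein gene Mup3 (4.97) and Clec2h (4.93) on the positive side, and Bmper (-4.18), an antagonist of bone morphogenetic proteins, and Igdcc4 (-3.09) on the negative side.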

How the data were processed

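RNA from mouse liver was hybridised to 1-colour arrays, 1 array per sample. The values are log2 intensities that the authors made with RMA and deposited as 1 table for all 24 arrays, per the submitters' processing notes. For RMA, version and settings are not given in the sources, nor is the annotation build. Nothing was normalized again for the values reported.

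Of 35556 probe sets, 21218 have 1 gene symbol in the platform annotation, 1881 several and 12457 none. Gene numbers of 21185 were found in the current gene table and 33 were not, and the brightest probe set stood for each of 18820 symbols. A model of 8 group means was fitted to all 24 arrays with limma 3.58.1 in R 4.3.3 (16 residual degrees of freedom), and p-values were adjusted by Benjamini-Hochberg over all symbols. Genes with an adjusted p under 0.05 count as called. Intervals are 95%, and adjusted p-values are limma's throughout. The pipeline was tested on simulated data, with normal noise of the same spread in all groups for each gene. Such data cannot show how calls behave where the spread differs between groups, as it did for Lcn2. An exact permutation test of 3 arrays against 3 cannot go below 0.1. The number of arrays limits the precision.

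The genes described are up to 15 called genes per direction with the largest difference and no overlap between the groups. Where under 10 qualified, the 10 with the smallest p were taken, called or not. For the interaction up to 4 genes per direction were taken. For the time steps in ligated mutant liver only genes called in sham liver are described. From each list up to 4 members were added, those of smallest p, with Mapk8, Mapk9 and Nnt always named. Predicted genes, olfactory and vomeronasal receptors and antibody or T cell receptor segments were left out. Abundant or defining list members named with an interval were picked for what they are known to do. The comparison, the 35 gene lists and the tests were chosen with earlier results of these data known. The alternatives were quantile normalization, centring each array, a filter on dim genes, the mean over probe sets, an intensity trend with robust settings, array weights, the replicate number as a block, the 6 sham arrays alone and leaving out each array.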

Additional observations from a re-analysis of the deposited data

Results flagged for a closer look

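For 12 of the 25 called genes, the difference between 28 d and 48 h in sham liver also differed from that in ligated control liver, by limma's test of the interaction. Values are the sham step minus the ligated step on the log2 scale, and the sham step enters both this test and the choice of the genes. The interaction was positive for Cish (3.72, adjusted p = 3.63e-05), Foxq1 (2.47, adjusted p = 0.000562), Hhex (1.78, adjusted p = 0.000295), Mir101b (1.29, adjusted p = 0.00806) and Foxa1 (1.17, adjusted p = 0.00847). It was also positive for Fign (1.14, adjusted p = 0.0437) and Rtn4rl1 (0.99, adjusted p = 0.0453). It was negative for Slc8a1 (-2.85, adjusted p = 0.00229), Mt2 (-2.57, adjusted p = 0.0270), Mt1 (-2.53, adjusted p = 0.0234), Fam107a (-2.04, adjusted p = 0.000325) and Ppip5k2 (-0.65, adjusted p = 0.0302).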

How the results depend on the processing

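The sham comparison called 25 genes, and the other settings gave 131 with array weights, 63 with the 6 sham arrays alone and 4 to 21 without 1 array, lowest without replicate 3 labelled sham 48 h. The interaction, 244 genes, gave 1051 with array weights and 112 to 612 without 1 array. Ligated JNK1-/- liver, 534 genes, gave 2554 and 227 to 659, and ligated JNK1Δhepa liver, 3382 genes, gave 5218 and 1919 to 2760. With array weights all 25 sham genes were called, and with the 6 sham arrays alone 15 of them were. Cish, Hhex and Foxq1 were called under all 14 alternatives, 22 genes lost the call under at least 1, and none of the 25 changed direction. Replicate numbers are shared between the groups, but same-numbered sham arrays deviated from their group means with correlations of 0.10, -0.02 and 0.10, so the numbers were not taken as pairs. With the replicate number as a block the counts were 19, 258, 554 and 3489. Centring each array gave 17, 308, 666 and 3037. Why the counts move was not tested. With 3 arrays per group a median SE of 0.129 limits the sham comparison, and the arrays labelled sham 48 h cannot all be left out.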

Other observations

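Mapk8 lies on chromosome 14, and the place of the called genes relative to it was looked at after their values had been seen. That chromosome holds 659 of the genes tested (3.5%) and 3 of the 25 called (12%), namely Shld2, Rarb and Fam107a. Between Mapk8 and these lie 12, 122 and 142 tested genes. Of the 100 tested genes nearest to Mapk8 in gene order, 50 on each side, Shld2 was the 1 called, 5 had an unadjusted p under 0.05 (7.58% of all genes) and 13 had sham groups that did not overlap (18% of all genes).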
